A study of Mus musculus with 80 samples.

Results

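The Krueppel-like factors followed here are Klf3, Klf4, Klf6, Klf9, Klf10, Klf11, Klf13 and Klf15. They were taken by symbol from the table of gene counts, 8 of its 78275 genes, and all 8 passed the filter on low counts that left 21187 genes for testing. Krueppel-like factors are zinc finger proteins that bind GC-rich and CACCC-type DNA and either raise or lower transcription. KLF9, KLF10, KLF11 and KLF13 recruit the SIN3A corepressor, KLF3 recruits CTBP corepressors, KLF4 and KLF6 are rapidly induced regulators of growth and stress responses, and KLF15 is known in liver for amino acid breakdown and glucose production. Several of these genes are known to respond to glucocorticoids or to follow the circadian clock.

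The livers came from male and female C57BL/6J mice, an inbred strain, bought at 8 to 12 weeks of age, housed in groups in light and dark and then moved to constant darkness. Control mice had chow at all times, and fasted mice lost their food at circadian time (CT) 10 and did not get it back. Livers were taken at 10 times, every 4 h from CT8 to CT44, from 2 males and 2 females of each treatment, which gave 80 libraries of polyadenylated RNA, 40 for each treatment. At CT8 the mice named fasted still had food, and the later mice had been without food for 2 to 34 h. Every library is 1 mouse. A title and the labels below it contradict each other about sex in 40 libraries and about treatment in 40, and titles were used throughout. For 80 of 80 libraries the Xist and Ddx3y counts matched the titled sex. Over CT12 to CT44 the fasting hormone gene Fgf21 was higher in mice titled fasted (log2 difference 3.95 ± 0.25, SE) and the lipogenic regulator Srebf1 was lower (-3.13 ± 0.10, SE). Libraries held 25534900 to 59927800 gene counts, rounded to the nearest 100. In control CT8 female 2 a ribosomal RNA gene took 31.3% of the counts, against at most 4.88% in any other library.

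The genes lie apart in the genome. In GENCODE M21 on the GRCm38 build, which is not the GRCm39 build named for the deposited tables, Klf4 spans chr4:55527143-55532466, Klf3 chr5:64803388-64832901, Klf15 chr6:90462576-90475238 and Klf13 chr7:63886351-63938915. Klf11 spans chr12:24651274-24662789, Klf6 chr13:5861482-5870394, Klf10 chr15:38291463-38300706 and Klf9 chr19:23141226-23168134. Klf4, Klf10 and Klf13 are on the minus strand. Klf13 overlaps 2 genes of the opposite strand, Gm27252 and E030018B13Rik, with medians of 282 and 220.5 counts against 2366 for Klf13. Klf9 overlaps the microRNA gene Mir1192, and Klf3 overlaps Gm20033 on the opposite strand and C230096K16Rik on its own, with medians of 28 and 18 counts against 3150 for Klf3. The library kit keeps strand, but the setting used for counting is not given in the sources used here, so reads of such overlapping genes cannot be told apart.

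Promoters are shown for the 4 genes whose 250 bases before the start site held an E-box, CACGTG, the palindromic site that clock activators recognise. They come from RefSeq on GRCm38.p6, are written in the direction of the gene, and have each E-box in capitals. Of the 8 genes 7 had an entry, and Klf10 had none. The stretches are chr4:55532627-55532682 (minus strand), chr6:90462326-90462434, chr12:24651132-24651187 and chr13:5861421-5861476.
Klf4: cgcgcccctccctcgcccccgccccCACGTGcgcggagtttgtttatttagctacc
Klf15: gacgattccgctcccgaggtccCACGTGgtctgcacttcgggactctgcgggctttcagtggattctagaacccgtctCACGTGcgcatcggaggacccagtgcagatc
Klf11: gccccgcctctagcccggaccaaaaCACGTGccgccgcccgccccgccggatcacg
Klf6: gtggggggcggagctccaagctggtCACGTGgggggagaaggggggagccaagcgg

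The 2 E-boxes of Klf15 begin at -228 and -172 relative to the start site, that of Klf11 at -214, that of Klf4 at -182 and that of Klf6 at -43. An E-box was present in 6.02% of all 32851 promoters of this length. The GC box GGGCGG, searched on both strands, was present in 6 of the 7 promoters and in 32.7% of all, and the CACCC box CCACCC in Klf3 and Klf13 and in 28.1% of all. In Klf13 the CACCC box shares bases with a GC box. The forkhead site TGTTTAC was found in the promoter of Klf9 and in 3.17% of all. The cAMP response element TGACGTCA, the palindromic glucocorticoid response element, the ROR element AGGTCA and the D-box TTATGTAA had no match in the 7 windows. They were present in 1.55%, 0.00913%, 14.02% and 0.819% of all promoters.

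The levels of the 8 genes in fed liver were spread widely. Divided by the exon length of the annotation in kb, median CPM (counts scaled to library size, in the usual per-million unit) over the 40 control libraries were 55.6 per kb for Klf15 and 22.1 for Klf9. They were 7.71 for Klf13, 6.06 for Klf3, 3.76 for Klf10, 1.99 for Klf6, 1.61 for Klf11 and 0.565 for Klf4. Each gene's libraries overlapped with those of its neighbour in this order, for example at 22.4 to 83.5 CPM per kb for Klf15 and 10.4 to 39.4 for Klf9. Klf10 alone ran from 1.49 to 23.6 CPM per kb. In fasted livers from CT12 on the medians were 80.8 CPM per kb for Klf15, 46.5 for Klf9, 9.04 for Klf3, 7.29 for Klf13, 6.61 for Klf10, 4.25 for Klf11, 2.36 for Klf6 and 0.814 for Klf4.

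**Figure D1:**
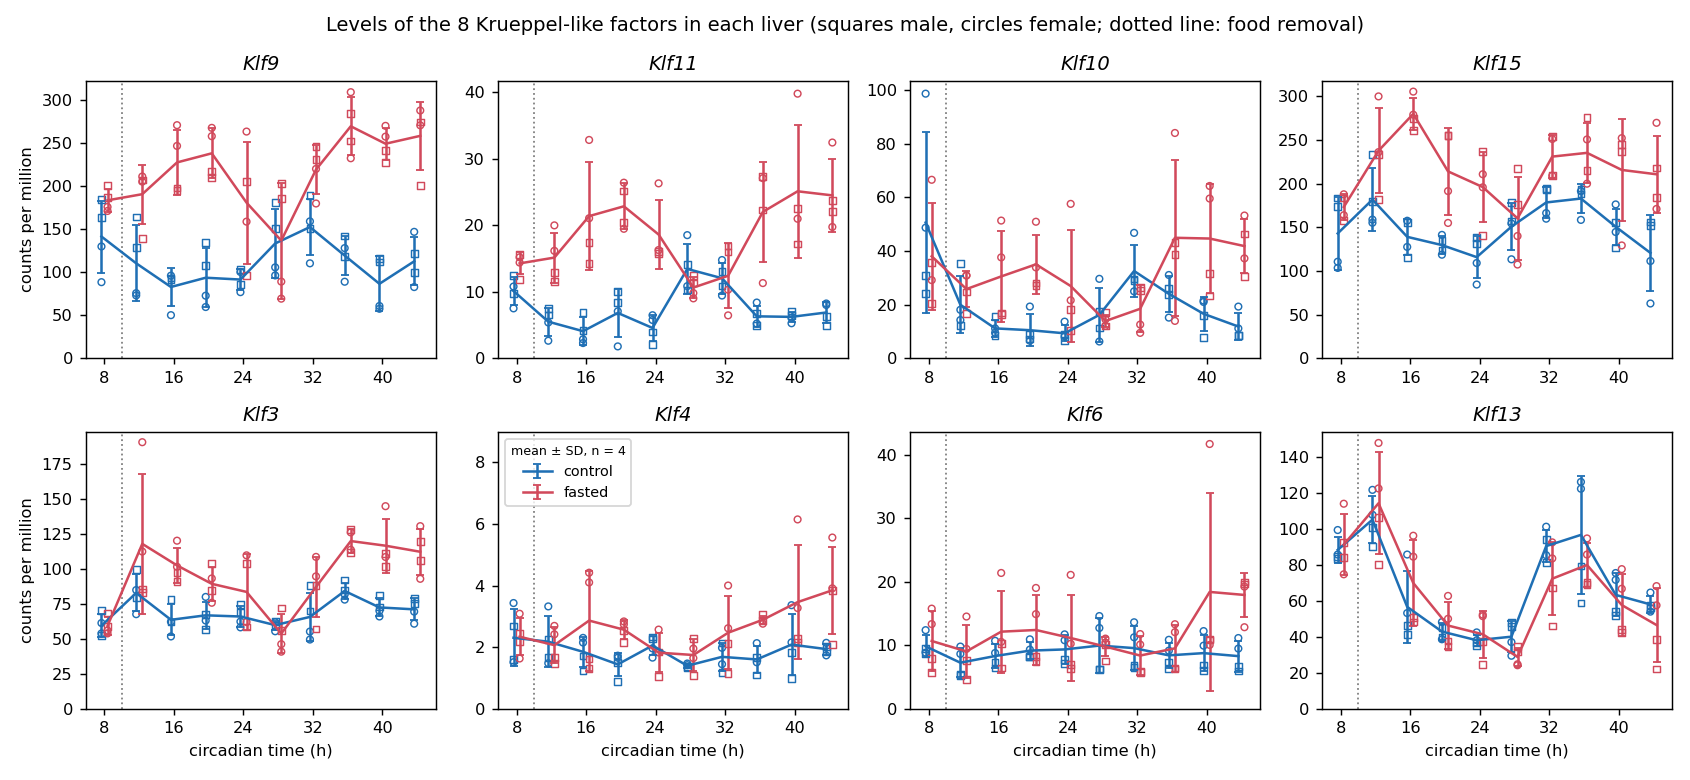
CPM (vertical axes, from 0) of each gene in every liver against circadian time, control in blue and fasted in red, with lines through the means of 4 livers and bars of 1 SD. The red lines of Klf9 and Klf11 lie above the blue ones from CT8 to CT24 and from CT36 to CT44. At CT8, before food removal, the means were 184 against 141 CPM for Klf9 and 14.3 against 10.1 for Klf11. At CT28 the lines of Klf9 meet, and the red line of Klf11 lies below the blue one. At CT32 the red line of Klf9 lies above again and the lines of Klf11 meet. The lines of Klf13 stay close together.

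Averaged over CT12 to CT44, 7 of the 8 genes rose with fasting and Klf13 fell. Klf11 rose most (log2 difference 1.46 ± 0.09, SE, 2.75-fold, adjusted p = 3.41e-18), followed by Klf9 (1.02 ± 0.06, 2.02-fold, adjusted p = 1.01e-18) and Klf10 (0.86 ± 0.14, adjusted p = 3.41e-07). These calls stand against a background in which fasting changed 62.5% of all genes tested, 29.5% of them higher and 32.9% lower, so that a call is common in these livers. The median difference of the 8 genes was 0.52 on the log2 scale, against -0.02 over all genes.

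Klf9, a glucocorticoid-induced and clock-linked repressor, had 36 control libraries from CT12 to CT44 at 50.0 to 189.5 CPM with a median of 104 and 36 fasted libraries at 69.2 to 309 CPM with a median of 224. At CT16 the control livers held 93.3 and 91.9 CPM in males and 96.0 and 50.0 in females, and the fasted livers 198 and 195 in males and 247 and 271 in females. All 4 fasted livers lay above all 4 controls at that time (1.46 ± 0.19, adjusted p = 1.36e-07), and they did so again at CT40, with controls at 112, 116, 60.7 and 57.4 CPM and fasted livers at 242, 228, 258 and 270.2. At CT28 the groups overlapped, with controls at 181, 151, 96.2 and 106 CPM and fasted livers at 186, 203, 69.2 and 89.1 (-0.06 ± 0.19, adjusted p = 0.87). The rise was already called at CT12, after 2 h without food (0.87 ± 0.19, adjusted p = 0.00819), when fasted CT12 male 2, at 139 CPM, lay within the control range. The CT12 calls of Klf9 and Klf11 were both lost without male replicate 1 (adjusted p = 0.401 and 0.179) and without male replicate 2 (adjusted p = 0.141 and 0.276). At CT8, with food still present, Klf9 differed by 0.41 ± 0.19 (adjusted p = 0.33, unadjusted p = 0.0333).

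From CT12 to CT44 Klf11, a TGF-beta-inducible repressor, ranged from 1.77 to 18.5 CPM in control libraries (median 6.59). In fasted ones it ranged from 6.44 to 39.8 CPM (median 18.4). At CT16 the control livers were at 4.196 and 6.93 CPM in males and 2.28 and 2.84 in females. The fasted livers were at 14.2 and 17.4 CPM in males and 21.1 and 32.8 in females, all above every control, a difference of 2.45 ± 0.29 or 5.46-fold (adjusted p = 2.31e-08). At CT28 the order was lost, with controls at 10.2, 14.1, 18.5 and 10.8 CPM and fasted livers at 11.3, 12.4, 9.79 and 9.0003 (-0.34 ± 0.27, adjusted p = 0.425). Before food removal, at CT8, Klf11 differed by 0.51 ± 0.28 (adjusted p = 0.448, unadjusted p = 0.0701).

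Klf10, the other TGF-beta-inducible family member, rose less steadily. From CT12 to CT44 its control libraries ran from 6.21 to 46.7 CPM (median 14.7) and its fasted ones from 9.43 to 84.0 (median 27.6). At CT8 its controls reached 98.7 CPM. At CT20 the controls held 7.13, 8.83, 6.51 and 19.3 CPM and the fasted livers 28.1, 27.2, 50.9 and 33.9, with no overlap (1.76 ± 0.42, adjusted p = 0.000714). At CT32 the order was the other way, with controls at 29.6, 28.8, 46.7 and 24.9 CPM and fasted livers at 26.4, 25.3, 12.5 and 9.43, and the difference did not pass the test (-0.94 ± 0.41, adjusted p = 0.104). Without a filter on low counts the difference was again -0.94, though edgeR's adjusted p fell to 5.42e-14. That setting shrank other adjusted p-values too, such as that of the Klf13 rhythm in fasted livers, from 2.89e-07 to 4.27e-51. Its calls are therefore not taken as stronger evidence. Without female replicate 2 the difference was -1.03. The CT16 and CT24 calls of Klf10 were lost without either male replicate. The CT24 call was also lost without female replicate 1 (0.78, adjusted p = 0.123), and the CT40 call without male replicate 1 (adjusted p = 0.217).

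Klf15, which promotes amino acid breakdown, rose by 0.56 ± 0.06 (adjusted p = 5.31e-12), from a median of 155 CPM (62.6 to 233) to 225 CPM (107 to 305). The largest difference was at CT16, where controls held 156, 115, 157 and 127 CPM and fasted livers 261, 275, 305 and 279, all above the controls (1.01 ± 0.17, adjusted p = 1.36e-05). Klf3, a CTBP-dependent repressor, rose by 0.45 ± 0.05 (adjusted p = 7.23e-10), from a median of 69.0 CPM (49.5 to 99.3) to 102 CPM (40.8 to 190.4). At CT16 its controls held 78.3, 62.1, 62.2 and 51.7 CPM and its fasted livers 90.9, 97.3, 101 and 120.1, again without overlap (0.69 ± 0.16, adjusted p = 0.00109, and 0.0583 without male replicate 2). In both genes the control and fasted ranges overlapped over the whole course.

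Klf4 was the least abundant, at 0.890 to 3.36 CPM in control and 1.04 to 6.15 CPM in fasted libraries from CT12 to CT44. It rose by 0.48 ± 0.09 (adjusted p = 1.94e-05). At CT36 its controls were at 1.67, 1.10, 1.51 and 2.13 CPM and its fasted livers at 2.87, 3.07, 2.86 and 2.76 (0.85 ± 0.28, adjusted p = 0.0194), a call lost without female replicate 1 or either male replicate. In males alone its mean difference was 0.29 (adjusted p = 0.0651). Klf6 rose by 0.38 ± 0.08 (adjusted p = 4.08e-05), but its calls at single times came only at CT40 and CT44. At CT44 the controls were at 5.94 and 6.61 CPM in males and 9.49 and 11.1 in females, and the fasted livers at 19.7, 19.997, 12.9 and 19.2, all above the controls (1.15 ± 0.23, adjusted p = 0.000105). At CT40 fasted female 2 reached 41.7 CPM while the other 3 fasted livers lay between 10.1 and 11.0. With female replicate 2 left out of every group the CT40 difference of Klf6 was 0.25 (adjusted p = 0.261), and without male replicate 2 it was 0.94 (adjusted p = 0.0550).

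Klf13, a close relative of Klf9, was the only one of the 8 that fell on average (-0.12 ± 0.05, adjusted p = 0.0237). Its medians over the course were 55.1 CPM in control (29.5 to 126) and 54.9 CPM in fasted livers (22.1 to 148). The call was lost without CT28, CT32, CT36 or CT44, without female replicate 1 and without male replicate 2 (-0.07, adjusted p = 0.391), and in females alone the sign turned (0.05, adjusted p = 0.545).

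**Figure D2:**
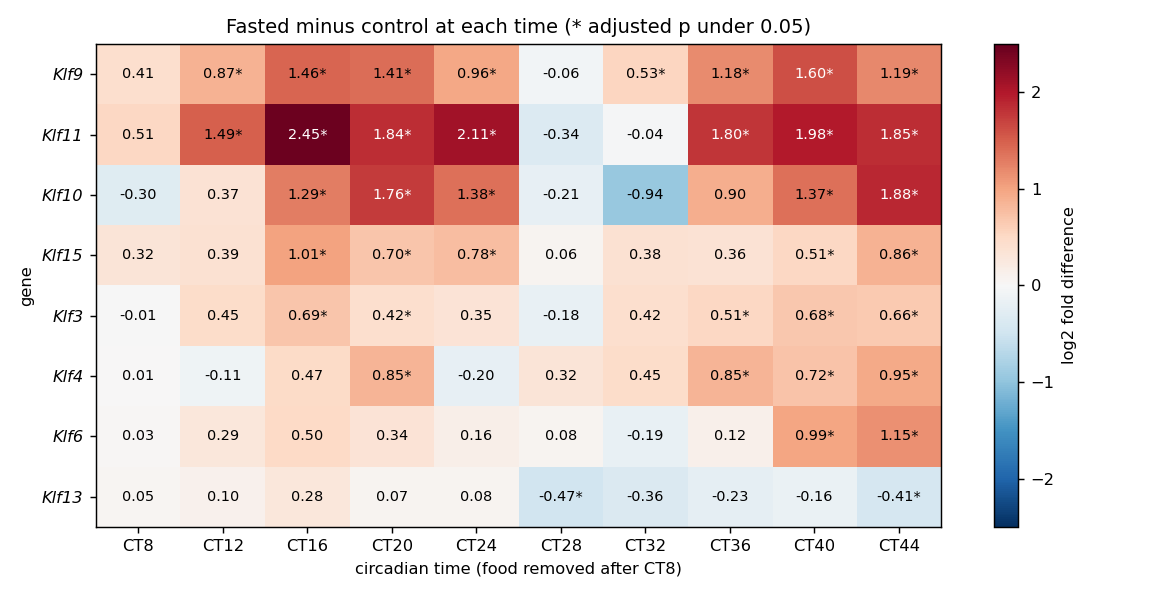
Log2 difference between fasted and control livers for each gene (rows) at each circadian time (columns), red for higher and blue for lower in fasted livers, with an asterisk where the adjusted p was under 0.05. Of the 8 genes none is marked at CT8, 6 are marked at CT20, 1 at CT28 and 8 at CT44.

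From CT12 on, the fewest members were called higher at CT28 and CT32, but this dip was not shared by every gene. Klf15 was at 0.38 ± 0.17 at CT32 and 0.36 ± 0.17 at CT36, and Klf3 at 0.42 ± 0.16 at both CT20 and CT32. Klf4 was at -0.20 ± 0.28 at CT24 and 0.45 ± 0.28 at CT32, and Klf6 had no call before CT40. At CT8 none of the 8 genes was called by edgeR (1 at an unadjusted p under 0.05, Klf9), and 1.33% of all genes were (0.118% higher, 1.21% lower). At CT12 Klf9 and Klf11 were called, with 1.6% of all genes called (0.92% higher, 0.684% lower). At CT16 5 genes were called higher (23.4% of all genes called, 11.5% higher and 11.9% lower). At CT20 6 were called higher (36.6%, 17.5% higher and 19.1% lower) and at CT24 4 (24.1%, 12.2% higher and 11.9% lower). At CT28, after 18 h, no member was called higher and Klf13 was called lower (-0.47 ± 0.14, adjusted p = 0.0144), while 21% of all genes were called (9.88% higher, 11.1% lower). The 4 controls of Klf13 held 48.0, 45.7, 29.5 and 37.0 CPM and the 4 fasted livers 34.8, 31.5, 24.7 and 24.2, which overlap, and the call was lost without female replicate 2 or either male replicate. At CT32 Klf9 alone was called (0.53 ± 0.19, adjusted p = 0.0431, background 17.7%, 8.4% higher and 9.3% lower), and no member was without either male replicate. At CT36 4 genes were called higher (26.8%, 12.8% higher and 14% lower) and at CT40 7 (39.9%, 18.7% higher and 21.2% lower). At CT44 7 were called higher and Klf13 lower (39.4%, 18.7% higher and 20.7% lower). Leaving out 1 replicate at every time lowered several of these counts by more than 1.5 times. The count at CT16 was 3 without male replicate 2, and that at CT24 was 1 without male replicate 1. At CT36 it was 2 without female replicate 1 or either male replicate, and at CT40 it was 4 without female replicate 2 or either male replicate. The Klf13 call at CT44 (-0.41 ± 0.14, adjusted p = 0.0194) was lost without female replicate 1 or male replicate 2. The median difference of the 8 genes was 0.85 at CT16, -0.12 at CT28 and 1.05 at CT44.

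The differences of 4 against 4 livers followed the same course. The fasted livers lay wholly above the controls for 0 of the 8 genes at CT8 (1.13% of all genes), 1 at CT12 (3.11%), 5 at CT16 (9.57%), 5 at CT20 (15.0%) and 2 at CT24 (9.97%). They did so for 0 at CT28 (9.52%), 1 at CT32 (9.3%), 5 at CT36 (11.1%), 4 at CT40 (12.5%) and 6 at CT44 (13.9%). No member had all 4 fasted livers below the controls at any time, where 0.958% of all genes did at CT8, 2.85% at CT12, 9.35% at CT16, 14.7% at CT20 and 9.52% at CT24. From CT28 to CT44 these shares were 9.01%, 9.23%, 10.5%, 14.2% and 16.2%. Klf11 was called higher at 7 of the 9 fasting times, Klf9 at 8, and Klf10, Klf15 and Klf3 at 5 each. Not all of these calls held on leaving out a replicate. The lowest difference of Klf15 was then 0.18 at CT40 (0.51 with all libraries) and 0.58 at CT24 (0.78). For Klf3 it was 0.27 at CT20 (0.42) and 0.48 at CT36 (0.51), and for Klf9 0.57 at CT24 (0.96).

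An F test over the 9 times found that the fasting difference varied in 7 of the 8 genes, against 33.7% of all genes. The adjusted p was 5.84e-07 for Klf11, 5.40e-05 for Klf9 and 0.00102 for Klf10, and that of Klf4 was 0.105. Without male replicate 1, and without male replicate 2, only 2 of the 8 genes were called, Klf9 and Klf11. Comparing the same phases 24 h apart, CT36 to CT44 against CT12 to CT20, only Klf13 differed (-0.42 ± 0.12, adjusted p = 0.00792), where 21.2% of all genes did (9.91% higher, 11.3% lower). The Klf13 call was lost without female replicate 2 or either male replicate (adjusted p of 0.0642 to 0.0736).

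Fed livers showed a 24 h rhythm in 6 of the 8 genes, against 41.8% of all genes. The peak-to-trough difference was largest in Klf10 (1.87 on the log2 scale, peak at CT8.89, adjusted p = 9.32e-07), then Klf13 (1.35, CT11.3, adjusted p = 2.12e-09) and Klf11 (1.19, CT4.93, adjusted p = 0.000825). Klf9 peaked at CT6.27, Klf15 at CT10.7 and Klf3 at CT14.3. Klf4 (adjusted p = 0.77) and Klf6 (adjusted p = 0.0628) were not called. The Klf3 rhythm was weak, at 0.34, and lost its call without female replicate 1 or either male replicate. The rhythm of Klf11 was not called in males alone (adjusted p = 0.0994), nor that of Klf9 in females alone (adjusted p = 0.114).

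In fasted livers a 24 h cosine, around a linear change with time, was called in all 8 genes, against 47.1% of all genes. There each circadian time came with 1 length of fast. A rhythm therefore cannot be told apart from a response to the fast that is not linear. Klf13 had a peak-to-trough difference of 1.36 with a peak at CT12.3, close to its fed rhythm. Klf9 peaked at CT15.6, Klf10 at CT16.5, Klf11 at CT17.6 and Klf15 at CT14.2. Without female replicate 2 the calls of Klf4, Klf9, Klf10 and Klf15 were lost, which left 4. Klf4 was also lost without female replicate 1 or male replicate 2, and Klf15 without either male replicate, so that each was called in 1 of 4 such fits.

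The fitted cosine differed between fed and fasted livers in 5 of the 8 genes, Klf6, Klf9, Klf10, Klf11 and Klf15, against 23.2% of all genes. Here too a changed rhythm cannot be told apart from a response to the fast that is not linear. The adjusted p was 5.99e-06 for Klf11, 6.90e-05 for Klf10, 0.000394 for Klf9, 0.00627 for Klf6 and 0.0256 for Klf15. These and the other adjusted p of this paragraph came from a joint fit of 72 libraries, CT12 to CT44, with linear time in both treatments. Peaks came from the separate fits, with linear time and without CT8 in fasted livers only. Those peaks were later in fasted livers by 9.34 h in Klf9, 7.62 h in Klf10 and 3.52 h in Klf15. For Klf11 the difference, taken the short way around 24 h, was -11.3 h. For Klf6, whose rhythm was not called in fed livers, it was -7.79 h. Klf13, at 1.02 h, and Klf3, at 0.720 h, did not pass (adjusted p = 0.551 and 0.0582). The Klf15 call was lost without female replicate 2 or either male replicate.

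**Figure D3:**
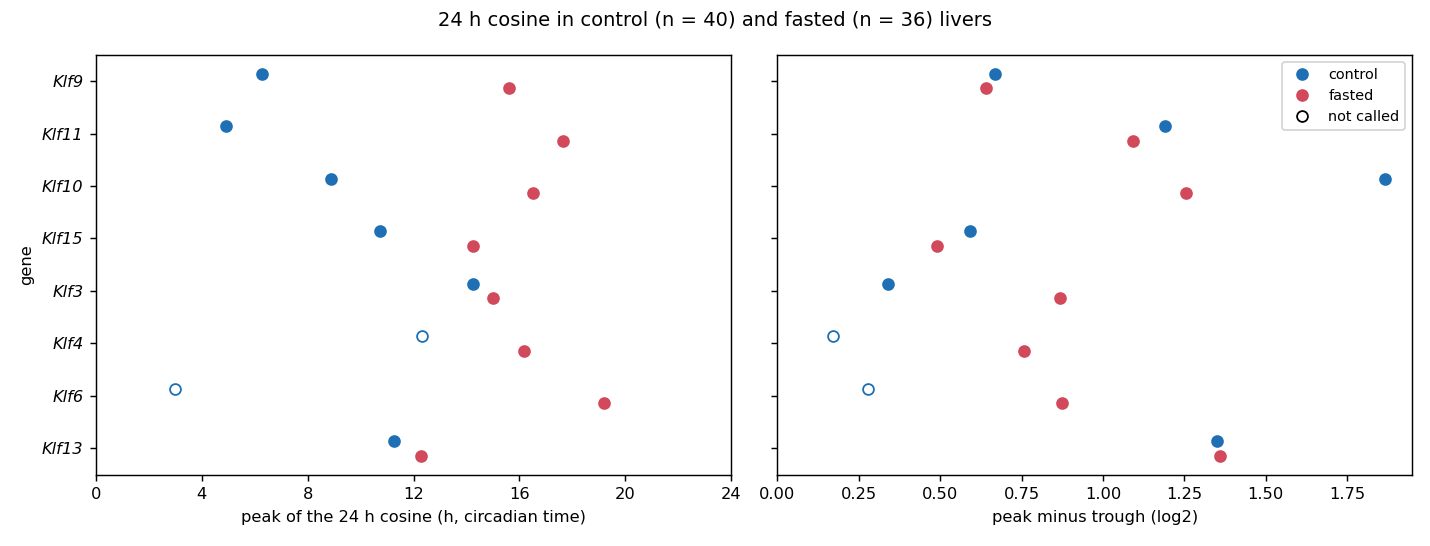
Left, fitted peak of a 24 h cosine in hours of circadian time, and right, peak minus trough on the log2 scale, for each gene in 40 control livers (blue) and 36 fasted livers (red), with open symbols where the rhythm was not called. Blue symbols of Klf9, Klf10 and Klf11 lie between CT4.93 and CT8.89 and red ones between CT15.6 and CT17.6.

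Males and females differed in the fed level of 5 of the 8 genes, against 39.2% of all genes (20.6% higher and 18.6% lower in females). Klf6 was higher in females (0.65 ± 0.11, 1.57-fold, adjusted p = 2.18e-06), with 20 male libraries at 5.24 to 9.45 CPM (median 6.75) and 20 female libraries at 8.65 to 14.6 (median 10.8). Klf13 was also higher in females (0.22 ± 0.06, adjusted p = 0.00407). Klf9 was lower in females (-0.52 ± 0.08, adjusted p = 2.37e-06), at 50.0 to 159 CPM (median 88.6) against 85.7 to 189.5 in males (median 125). Klf15 (-0.29 ± 0.08, adjusted p = 0.00189) and Klf3 (-0.19 ± 0.07, adjusted p = 0.0332) were lower in females as well. The Klf6 and Klf9 calls held without each replicate in turn, while Klf3 was lost without female replicate 2 or either male replicate, Klf13 without female replicate 1 or male replicate 2, and Klf15 without male replicate 1. Without control CT8 female replicate 2, a library chosen for this after the data were seen, 6 were called, with Klf4 added.

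The fasting difference itself was larger in females for Klf9 (0.54 ± 0.12, adjusted p = 0.00333) and Klf3 (0.33 ± 0.11, adjusted p = 0.0349), and for Klf13 it was higher in females (0.34 ± 0.10, adjusted p = 0.0142), against 12.4% of all genes called (5.35% higher, 7.02% lower). For Klf9 it was 0.75 in males and 1.28 in females, and for Klf13 -0.29 in males and 0.05 in females. In fasted livers from CT12 on the median of Klf9 was 209 CPM in males (95.9 to 284) and 252 in females (69.2 to 309). The medians stood in the reverse of the fed order, but these ranges overlapped widely, and sex in fasted livers was not tested. Without male replicate 2 none of these 3 was called, with adjusted p of 0.126 for Klf9, 0.313 for Klf13 and 0.296 for Klf3, and without male replicate 1 only Klf13 was called. Without female replicate 2 only Klf9 was called, and without female replicate 1 Klf3 was lost.

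**Figure D4:**
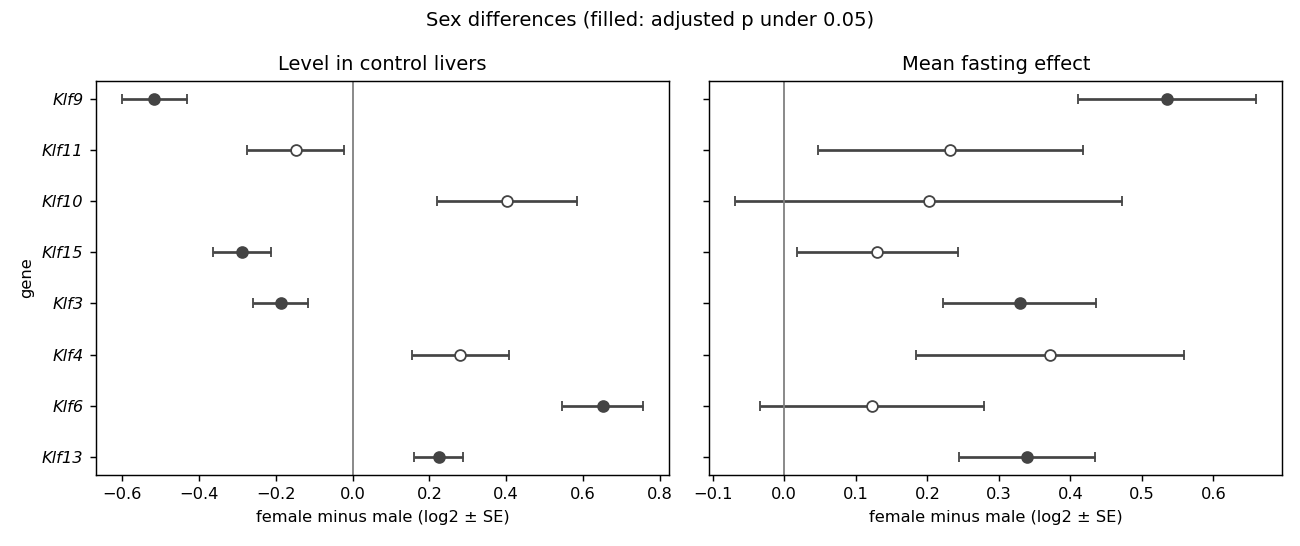
Female minus male difference on the log2 scale with its SE, at left for the level in control livers and at right for the mean fasting difference, with filled symbols where the adjusted p was under 0.05. At left Klf9 lies at -0.52 and Klf6 at 0.65, and at right Klf9 lies at 0.54.

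Exon bins gave no call among the 8 genes by edgeR's diffSpliceDGE, with 11.9% of 13233 genes called. At an unadjusted p under 0.05 there were 2, Klf13 (0.0367) and Klf15 (0.0403), against 18.5% of all genes. limma's diffSplice called 1, Klf3 (adjusted p = 0.0455), against 14.5% of all genes. Among exon columns 77 of 80 were matched best by the gene counts of their own library, and the other 3 were all fasted CT40.

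Related genes moved in both directions, where 29.5% of all genes tested were called higher and 32.9% lower. Of 10 other family members 6 were tested, of which Klf1 and Klf2 rose and Klf7, Klf12 and Klf16 fell, Klf12 most (-0.46 ± 0.05, adjusted p = 1.72e-10). Of 6 SP genes tested, which bind the same GC boxes, 3 rose and 2 fell, with Sp5 at -0.64 ± 0.14. Of 10 corepressor and coactivator genes 4 rose and 4 fell, with the deacetylase genes Hdac1 at -0.34 ± 0.03 and Hdac2 at -0.17 ± 0.03. None of 4 genes of ubiquitin ligases was called by edgeR, and 1 had an unadjusted p under 0.05, Smurf2 (0.07 ± 0.03, adjusted p = 0.0713). Of 7 genes of amino acid breakdown and glucose production linked to KLF15, 5 rose, with the gluconeogenic enzyme Pck1 at 1.80 ± 0.08 and the tryptophan-degrading enzyme Tdo2 at 1.15 ± 0.06, and the proline oxidase Prodh, named after its value was seen, fell (-0.32 ± 0.07). Of 7 glucocorticoid receptor targets 6 rose, with Pdk4 at 2.20 ± 0.17 and Fkbp5 at 2.16 ± 0.11. Among livers of the same treatment, time and sex, over 80 libraries, the mean level of these targets had an r of 0.65 with Klf15, 0.62 with Klf3 and 0.56 with Klf9. With the other members it was 0.20 (Klf13) to 0.43 (Klf6). The 2 livers of such a group deviate from their mean by mirrored amounts, so the 80 libraries hold 40 independent deviations. Of 8 immediate early genes 6 rose, with Jun at 1.28 ± 0.12 and Fos at 1.02 ± 0.18. Computed in the same way, the early genes had an r of 0.54 with Klf3 and 0.51 with Klf6, and -0.23 (Klf13) to 0.40 (Klf15) with the others. The part of either list in the members' values was not tested. Of 6 TGF-beta receptor and SMAD genes 3 rose and 2 fell, with Smad3 at -0.30 ± 0.06. Of 4 clock genes 2 rose and 1 fell, with Nr1d1 at 0.96 ± 0.11 and Per2 at -0.64 ± 0.07.

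Over the 20 means of treatment and time, the genes most like each member by Pearson's r among 11576 genes were these. Klf15 was closest to Pim3 (0.97), Itch and 1810055G02Rik, Klf9 to Cobll1 (0.95), 4833420G17Rik and Zmym5, and Klf11 to Hbp1 (0.95), Ube2b and Zfp36l2. Klf3 was closest to Rhobtb1 (0.94), Gm8783 and Trp53bp2, Klf10 to Maff (0.93), Bach1 and Sos2, and Klf13 to Atrnl1 (0.93), Upp2 and Rev1. Klf4 was closest to Sf1 (0.90), with Mark4 also named by the rule, and Klf6 to Akap17a (0.90), Ptpn12 and Sec24b. Among the members, Klf9 and Klf11 had the highest r over these means, 0.93. Among livers of the same treatment, time and sex (80 libraries, 40 independent deviations), that pair had an r of 0.10, and Klf10 with Klf11 had the highest, 0.58. Genes of 1 library share its depth and scaling.

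Markers of other cells moved with fasting too, where 29.5% of all genes tested were called higher and 32.9% lower. All 5 Kupffer cell markers fell, with a summed level of 182 to 541 CPM in control and 118 to 390.3 in fasted libraries from CT12 on. Of 6 sinusoidal endothelial markers 2 rose and 3 fell, at 252 to 373 and 247 to 393 CPM. Among livers of the same treatment, time and sex (80 libraries, 40 independent deviations), the endothelial markers had an r of 0.61 with Klf6 and 0.29 with Klf4. With the other members it was -0.23 (Klf10) to 0.25 (Klf3). Of 5 stellate markers 1 rose and 3 fell, at 208 to 371 and 188 to 379 CPM. Of 5 leukocyte markers 2 fell, at 9.57 to 45.4 and 7.87 to 26.6 CPM, and of 4 cholangiocyte markers 3 fell, at 5.53 to 20.1 and 3.05 to 18.1 CPM. Of 5 hepatocyte markers 3 rose and 1 fell, and they summed to 58345 to 111282 CPM in control and 71950 to 126776 in fasted libraries, and no listed marker was at 0 in all libraries. In whole liver, fewer cells of a type and less RNA per cell cannot be told apart, and the part of these cells in the values above was not tested.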

How the data were processed

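Liver RNA of 80 mice was sequenced from stranded polyadenylated libraries. The authors deposited raw counts per gene and raw counts per exon bin, and their normalised table was not used. The submitters' processing notes name Trimmomatic, HISAT2, DESeq2 and GRCm39, and the counting program is not given in the sources used here. The article is a review without methods for these data, so no test was taken from it. Library titles gave the groups, since titles and labels disagree.

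Genes were filtered with filterByExpr, scaled by TMM and fitted with edgeR 4.0.16 (R 4.3.3), over all 80 libraries with 1 mean per combination of treatment, time and sex. Quasi-likelihood tests were adjusted by the Benjamini-Hochberg method over all genes tested and called at an adjusted p under 0.05. Rhythms were fitted as a 24 h cosine and sine with sex, and in fasted livers with linear time. Their difference was tested in a joint fit of CT12 to CT44 with linear time in both treatments. CPM values were scaled by TMM, and log2 CPM used a prior count of 2. Exon bins were tested with diffSpliceDGE without sex, and rows that name no exon, 8.28% to 25.9% of a column, were left out. The p-values measure the spread among these mice.

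In simulated counts, several kinds of change, each of 1 on the log2 scale, were each given to 200 genes. The test of the mean fasting effect recovered 180 of its 200 and called 26 unchanged genes of 20502 tested. Recovery was lower at a single time (113 at CT24), for variation over time (116) and for the second day (119). It was 118 for the difference between rhythms, 143 for sex in the fasting difference and 150 for the control rhythm. Replicates of a group differed by a chi-square per degree of freedom of at least 14.8, so none was counted as a duplicate. On the median, same-numbered mice did not deviate together: over 380 pairs of groups the median correlation was 4.65e-05 and 20 were over 0.1. The correlations ran from -0.403 to 0.303, and a deviation shared by a few groups was not tested.

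The members and gene lists were chosen with earlier results of these data known, and the motifs after values had been seen. Named genes are the members, list genes of the largest mean fasting difference, and for likeness the 3 genes of highest r among those with a mean log2 CPM of at least 1. Not every gene chosen by this rule is reported here. Alternatives were DESeq2's size factors, other filters, limma 3.58.1 and DESeq2 1.42.0 as tests, single sexes, other times, other rhythm models, a replicate block, and leaving out each replicate. Positions are those of GENCODE M21 on GRCm38.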

Additional observations from a re-analysis of the deposited data

Results flagged for a closer look

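Among 160 groups of 4 livers (8 genes, 20 groups each), 9 had a liver far from the other 3, measured as its gap to the nearest of them divided by the range of the group, and chance gives 8. Klf6 in fasted CT40 female 2 was at 41.7 CPM against 10.1 to 11.0 (gap over range 0.937), and in fasted CT44 female 1 at 12.9 CPM against 19.2 to 19.997 (0.914). Klf9 was at 50.0 CPM in control CT16 female 2 against 91.9 to 96.0 (0.934), at 139 CPM in fasted CT12 male 2 against 205 to 211 (0.932), and at 201 CPM in fasted CT44 male 1 against 271 to 288 (0.8293). Klf11 in fasted CT24 female 1 was at 26.3 CPM against 15.7 to 16.3 (0.935). Klf13 in control CT8 female 1 was at 99.3 CPM against 83.4 to 85.6 (0.847). Klf15 was at 158 CPM in control CT36 female 2 against 188 to 194 (0.857), and at 129 CPM in fasted CT40 female 1 against 237 to 252 (0.907).

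The fasting difference differed between females and males, by a test of the difference itself, in Klf9 (0.54), Klf13 (0.34) and Klf3 (0.33). It differed between the second and the first day in Klf13 (-0.42).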

How the results depend on the processing

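Of 1543 fits of single members under an alternative, 33 turned the sign, 27 of them on leaving out a replicate and 6 otherwise. The mean fasting difference of Klf13, called with all libraries, turned in females alone (0.0492), and each of the others was not called in either fit. Where leaving out a replicate turned the sign, the differences at CT8 ran from -0.86 to 0.24 for Klf10, -0.17 to 0.24 for Klf13, -0.0582 to 0.0565 for Klf3, -0.12 to 0.18 for Klf4 and -0.15 to 0.21 for Klf6. At CT12 they ran from -0.077 to 0.98 for Klf10, -0.0518 to 0.24 for Klf13 and -0.38 to 0.28 for Klf4. At CT20 they ran from -0.0158 to 0.15 for Klf13. At CT24 they ran from -0.11 to 0.23 for Klf13 and -0.11 to 0.34 for Klf6. At CT28 they ran from -0.51 to 0.48 for Klf10, -0.0397 to 0.18 for Klf6 and -0.15 to 0.0339 for Klf9. At CT32 they ran from -0.0807 to 0.00703 for Klf11. At CT36 they ran from -0.23 to 1.60 for Klf10. For the second day they ran from -0.0355 to 0.41 for Klf10, -0.0564 to 0.27 for Klf3 and -0.0204 to 0.20 for Klf9. For sex in the fasting difference they ran from -0.0855 to 0.45 for Klf10 and -0.12 to 0.23 for Klf6. At CT8 Klf3 was at 0.00443 and Klf4 at -0.0225 with limma-voom, Klf4 at -0.00383 with the replicate block, and Klf3 at 0.0468 and Klf4 at -0.21 without control CT8 female 2.

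Leaving out each replicate left 1 mouse of that sex in a group, assumed to vary like the others. In the fits of group means the spread then came from the other sex alone. A call could be lost there with little change of the difference, as for Klf11 at CT12. The number of members called then ran from 5 to 6 for the control rhythm (6 with all libraries), 4 to 5 for the difference between rhythms (5), 4 to 7 for the fasted rhythm (8), 23 to 35 for single times (38 of 72), 2 to 7 for variation over time (7), 7 to 8 for the mean difference (8), 0 to 2 for the second day (1), 3 to 6 for sex in control livers (5) and 0 to 2 for sex in the fasting difference (3). No filter on low counts gave 2 for the second day, 2 at CT8 (Klf9 and Klf11), 5 at CT12 and 5 at CT32. Its p-values could be far smaller with differences nearly unchanged, as for Klf10 at CT32. For exon bins limma's diffSplice gave 1.

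On the median, replicate numbers did not pair the mice, and with the replicate block no call of a member changed. That block gave 38 single-time calls, 8 mean, 7 over time, 1 second-day and 5 and 3 sex calls. Rhythm calls with it were 6, 8 and 5, and exon calls 0.

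Counts over all genes moved as well. Without male replicate 1 or 2, genes called numbered 1647 and 1186 for variation over time (7130), 1738 and 1449 for the second day (4483), and 238 and 360 for sex in the fasting difference (2621). At single times they numbered 2112 and 2465 at CT16 (4955), 4789 and 4784 at CT20 (7757), 2001 and 2832 at CT24 (5099), 1807 and 1953 at CT28 (4448), 1434 and 1198 at CT32 (3751), 2625 and 2546 at CT36 (5672). Without male replicate 1 CT40 gave 5072 (8459), and without male replicate 2 CT44 gave 4545 (8355) and the difference between rhythms 2635 (4858). Control rhythms numbered 4692 in females and 5104 in males alone (8417). Exon usage gave 868 genes with at least 10 counts in every library and 840 without female replicate 1 (1581). At CT12 the count was 340, 1158 without a filter and 5 to 545 without a replicate. At CT8 it was 282, 4 by limma, 853 without a filter, 11 without control CT8 female 2 and 0 to 2123 without a replicate.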
